A study of Mus musculus with 2 samples.

Results

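Fos, Fosb, Fosl2, Jun, Junb, Jund, Egr1, Atf3, Ier2 and Dusp1 are 10 genes of the immediate early response, 7 of them subunits of, or partners in, the transcription factor AP-1. They were taken by symbol, each matching exactly 1 of the 32285 genes listed in both matrices, and the rule that picks them uses none of their values, though the list was drawn up with earlier results of these data known. The study made 1 droplet-based single-cell 3′ library from bone marrow of control mice (Ctrl) and 1 from Map4k4-cKO mice (cKO), all 13 to 14 weeks old and on a C57BL/6 background. In the cKO animals both Map4k4 alleles were floxed and deleted by Mx1-Cre, a recombinase under an interferon-inducible promoter that acts in haematopoietic and other cells, after injections of poly I:C given weeks before the experiment. The study's methods write the controls as Mx1-Cre Map4k4-/- littermates, which reads as animals without the floxed allele, and do not say whether controls received poly I:C or how many mice were pooled. Each library was a mixture, at 2 parts to 3, of c-Kit+ cells taken on magnetic beads and marrow cells freed of red cells by lysis, both kept in ice-cold buffer. With 1 library per genotype there is no replicate, so no test between genotypes was possible, and every interval below is a 95% interval of counting error only.

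AP-1 is a dimer of basic leucine zipper proteins: the Fos proteins bind DNA only with a Jun partner, whereas Jun proteins also pair with each other. Growth factors, cytokines and stress induce these genes within minutes through MAP kinase cascades acting on factors that already sit at their promoters, and the c-Jun N-terminal kinase (JNK), which lies downstream of MAP4K4 in several cell types, phosphorylates c-Jun. The transcripts are short-lived, and cell isolation is itself a known inducer, so in marrow preparations they are read both as marks of signalling and as marks of handling. Both libraries were made from live, isolated cells, so signal present in the animal and signal that arose during isolation cannot be told apart.

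The promoters of Fos, Fosb, Jun, Junb and Dusp1 are shown because they hold a motif and belong to genes that the comparisons below turn on. Atf3, which also holds one, was left out for its few UMIs, and the windows of Fosl2 and Jund held none of the motifs searched. The RefSeq start sites need not match the gene models given below. The Jund window ends at chr8:70697738, well upstream of its model. The windows of Fosl2 (chr5:32136222-32136471), Dusp1 and Atf3 lie inside their models. Each line gives the 250 bases upstream of the start site, 5′ to 3′ on the gene's strand, from RefSeq sequence of build GRCm38.p6. Capitals mark the cAMP response element half-site TGACG, the full element TGACGTCA, of which the half-site is a part, and TGACATCA, the type of AP-1 element first described in the Jun promoter.
Fos, chr12:85473640-85473889, plus strand: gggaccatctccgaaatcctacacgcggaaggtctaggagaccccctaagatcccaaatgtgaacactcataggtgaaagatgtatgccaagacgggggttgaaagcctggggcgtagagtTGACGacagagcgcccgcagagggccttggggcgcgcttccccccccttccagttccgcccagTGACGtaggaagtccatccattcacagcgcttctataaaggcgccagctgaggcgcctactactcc
Fosb, chr7:19310046-19310295, minus strand: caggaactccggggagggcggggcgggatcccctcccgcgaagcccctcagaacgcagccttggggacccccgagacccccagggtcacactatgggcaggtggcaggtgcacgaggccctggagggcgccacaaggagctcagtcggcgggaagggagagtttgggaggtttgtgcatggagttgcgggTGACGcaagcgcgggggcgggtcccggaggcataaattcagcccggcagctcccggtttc
Jun, chr4:95052223-95052472, minus strand: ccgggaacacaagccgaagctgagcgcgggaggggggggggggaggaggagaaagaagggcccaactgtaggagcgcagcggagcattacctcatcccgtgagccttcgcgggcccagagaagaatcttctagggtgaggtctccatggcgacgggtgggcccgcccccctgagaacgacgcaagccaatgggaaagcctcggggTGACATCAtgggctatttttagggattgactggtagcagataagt
Junb, chr8:84978749-84978998, minus strand: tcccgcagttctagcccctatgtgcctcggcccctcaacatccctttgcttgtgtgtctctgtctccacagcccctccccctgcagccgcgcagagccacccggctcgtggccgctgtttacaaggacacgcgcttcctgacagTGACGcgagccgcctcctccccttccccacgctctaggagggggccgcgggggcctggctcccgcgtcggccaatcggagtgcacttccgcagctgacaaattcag
Dusp1, chr17:26508473-26508722, minus strand: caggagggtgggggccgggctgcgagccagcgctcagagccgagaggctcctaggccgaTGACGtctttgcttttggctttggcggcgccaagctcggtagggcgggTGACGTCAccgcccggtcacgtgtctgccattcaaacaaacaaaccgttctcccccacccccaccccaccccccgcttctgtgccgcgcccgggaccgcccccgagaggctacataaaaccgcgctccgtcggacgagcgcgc
Sequence was matched for 8 members, all but Egr1 and Ier2. On both strands the half-site TGACG stood in the windows of 5 of the 8 (Fos, Fosb, Junb, Atf3 and Dusp1) and in 17.8% of 32851 promoter windows of the same length. This motif was added after the sequences had been read. The full element TGACGTCA stood in 1 of 8 (Dusp1) and 1.55% of all windows, and TGACATCA in 1 of 8 (Jun) and 2.93%. No window of the 8 held a CArG box, the serum response factor site found in 1.47% of all windows, the consensus AP-1 site TGACTCA (4.46%) or the EGR site GCGTGGGCG (0.536%). These are matches of letters, and no match says only that the letters are not within this window.

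In the gene models of GENCODE vM21, on the same build as the counts, the longest transcripts of Jun, Junb, Jund and Ier2 each have 1 exon. Fos lies on chr12:85473890-85477273 and Fosb on chr7:19302696-19310051. Junb, on chr8:84974484-84978718, overlaps Prdx2 on the other strand, Jun (chr4:95049034-95052222) overlaps the antisense gene Junos, and Jund (chr8:70698949-70700616) overlaps the antisense gene Gm11175. Dusp1 models on chr17:26505590-26562128 span 4 other genes, Ergic1 among them, and Atf3 overlaps Gm24748. Whether the authors' counting used strand is not given in the sources used here, so counts of these 5 members carry that uncertainty. For Dusp1, AC122252.1 and AC122252.4 lie on its own strand, where counting by strand would not part the reads.

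The Ctrl library held 71527701 UMIs (unique molecular identifiers, 1 per captured transcript) in 10220 barcodes and the cKO library 64393950 in 6872. The study's limits on genes and mitochondrial share kept 9965 and 6718 barcodes, and a minimum of 1000 UMIs left 8795 and 5347 cells. The libraries shared 3010 barcode sequences, but profiles of the same barcode in both were no more alike (median correlation -0.005 over 2649 pairs) than those of different barcodes (0.000). Cells were placed in 16 gates by the share of their UMIs on fixed marker lists, and 7457 and 4446 cells met exactly 1 gate. The neutrophil path was divided into ProNeu-like cells with primary granule genes, cycling PreNeu-like cells, non-cycling imNeu-like cells with secondary granule genes, and mNeu-like mature cells. Among the 7 gates with at least 50 cells in both libraries, 6 of 6 to 11 of 11 listed markers were detected. Cells entered the gates by these same markers, so their detection is no check of the gates. Of the 10 genes highest in a gate relative to the other gates of its library, 1 (imNeu-like, cKO) to 7 (mNeu-like, cKO) were listed markers. The targeted gene did not check the labels: Map4k4 stood at 72.4 CPM (a gene's share of all UMIs, on the usual counts scale for single-cell libraries) over all Ctrl barcodes and 64.2 over all cKO barcodes. By gate its log2 ratio ranged from -0.50 (-0.72 to -0.28) in imNeu-like cells to 0.60 (0.35 to 0.86) in ProNeu-like cells. A 3′ library reads the end of the transcript, and the floxed exons are not given in the sources used here. The study itself reports, by RT-PCR, that Map4k4 transcript was lost in haematopoietic stem and progenitor cells after poly I:C. Cells were deeper in the cKO library in all 7 gates, by 1.05 times at the median in ProNeu-like and 2.57 times in mNeu-like cells, and this bears on every ratio below.

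Each member had a cell-type pattern of its own, and for most members the order of gates was much the same in both libraries. Over the 9 gates with at least 20 cells in each library, the Spearman correlation of Ctrl with cKO levels was 0.80 or more for 8 members and 0.50 and 0.47 for Egr1 and Atf3, as a description over points that share a library. All levels in this and the following paragraphs are CPM over the summed UMIs of a gate, and the gates are not matched for depth unless a depth is given.

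**Figure D1:**
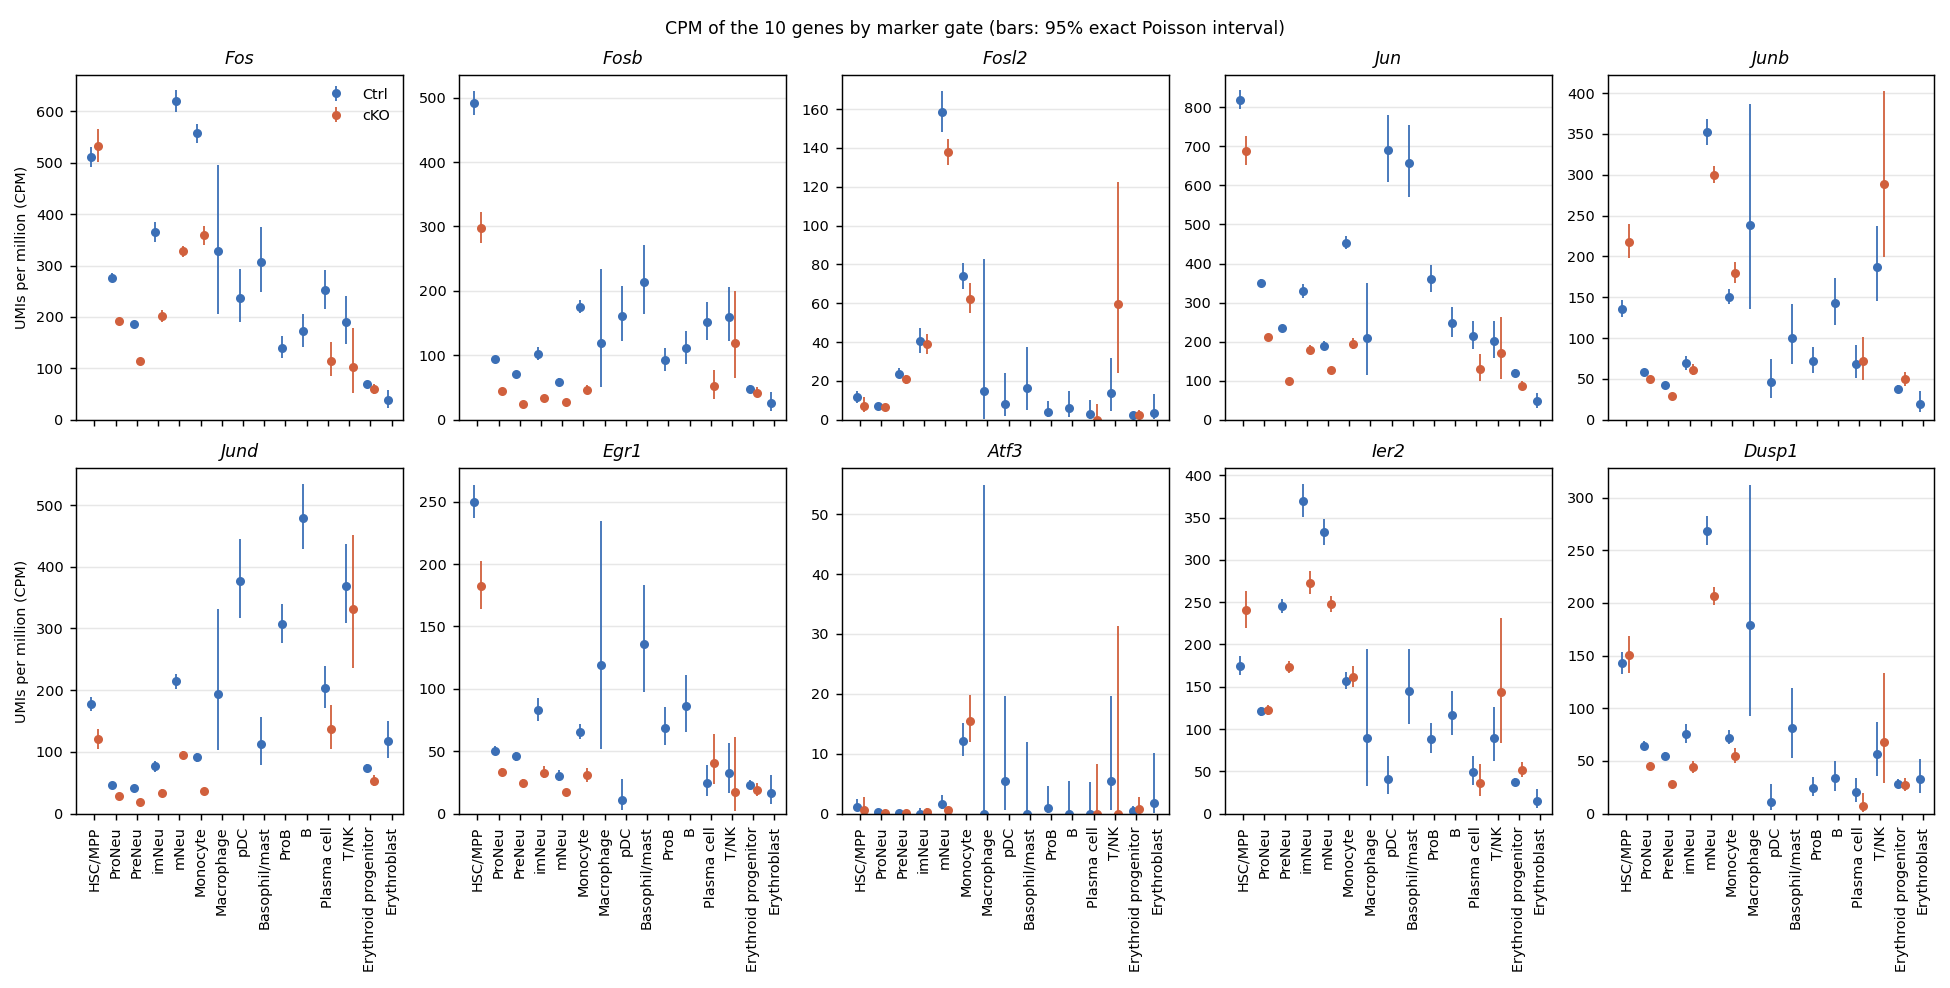
CPM of each of the 10 genes (vertical axis, linear from 0) in every marker gate with at least 20 cells (horizontal axis), blue for Ctrl and orange for cKO, with 95% exact Poisson intervals. Jun, Fosb and Egr1 stand highest in HSC/MPP-like cells, Fosl2, Junb and Dusp1 in mNeu-like cells, Jund in lymphoid cells, and Atf3 in Monocyte-like cells. The gates are not matched for depth.

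Among the Fos genes, Fos itself was high at both ends of the neutrophil path and in monocytes. It stood at 511 CPM in Ctrl and 533 in cKO HSC/MPP-like cells, the stem and multipotent progenitor gate. In Monocyte-like cells it was 557 and 359, and in mNeu-like cells 619 (599 to 641) and 328 (317 to 338). The highest gate was therefore mNeu-like in Ctrl and HSC/MPP-like in cKO, each apart from the next gate, monocytes in both, by its interval. These levels are not matched for depth: Ctrl mNeu-like cells held a median of 2543 UMIs and Ctrl HSC/MPP-like cells 9435. At 4000 up to 8000 UMIs per cell, Ctrl Fos was 765 CPM in HSC/MPP-like, 666 in Monocyte-like and 429 in mNeu-like cells. Fos was low between the ends, at 185 and 115 CPM in PreNeu-like cells, and lowest in erythroid cells, at 69.3 and 59.3 in Erythroid progenitor-like and 38.0 in Ctrl Erythroblast-like cells.

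Fosb, which is best known from neurons, was foremost a gene of the immature compartment. It reached 492 CPM (473 to 511) in Ctrl and 298 (274 to 323) in cKO HSC/MPP-like cells. The next gate stood at 213 (Basophil/mast-like) in Ctrl and 119 (T/NK-like) in cKO, both below those intervals. Fosb was 58.7 and 28.2 CPM in mNeu-like cells, with most of the drop between HSC/MPP-like and ProNeu-like cells (94.4 and 45.3 CPM).

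Fosl2, which encodes Fra-2, was the reverse. It was 11.5 and 7.09 CPM in HSC/MPP-like cells, 7.26 and 6.55 in ProNeu-like, 23.8 and 20.8 in PreNeu-like, 40.5 and 38.8 in imNeu-like and 158 and 138 in mNeu-like cells. From ProNeu-like cells on, it rose at each step in both libraries. The log2 ratio of mNeu-like over HSC/MPP-like cells was 3.79 in Ctrl and 4.28 in cKO for Fosl2, against -3.07 and -3.40 for Fosb. Monocyte-like cells came second at 73.9 and 62.3 CPM.

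The Jun genes parted in the same way. Jun, the main JNK substrate of the family and itself an AP-1 target, was highest in HSC/MPP-like cells at 819 CPM (795 to 843) in Ctrl and 688 (652 to 726) in cKO. In Ctrl it was followed by pDC-like cells at 690 and Basophil/mast-like cells at 659, gates with 9 and 13 cells in cKO. It fell to 189 and 127 CPM in mNeu-like cells.

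Junb, a restraint on myeloid proliferation in mice, was highest in mNeu-like cells at 352 CPM (337 to 368) and 300.3 (290.2 to 311), though in Ctrl its interval overlapped that of 31 Macrophage-like cells (238 CPM) and in cKO that of 20 T/NK-like cells (288 CPM). It was 136 and 218 in HSC/MPP-like, 42.8 and 29.3 in PreNeu-like and 69.3 and 61.2 in imNeu-like cells. These levels are not matched for depth. At 4000 up to 8000 UMIs per cell, Ctrl Junb was 228 CPM in Monocyte-like, 200 in mNeu-like and 182 in HSC/MPP-like cells. In cKO the same gates held 229, 422 and 379. mNeu-like over PreNeu-like was a log2 ratio of 3.04 in Ctrl and 3.36 in cKO for Junb, against -0.31 and 0.37 for Jun.

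Jund, the Jun gene that many cells keep on at rest, was the lymphoid member. Ctrl levels were 479 CPM in B-like, 376 in pDC-like, 369 in T/NK-like and 306 in ProB-like cells, and the interval of B-like cells overlapped that of pDC-like cells. In cKO only the T/NK-like gate (331 CPM, 20 cells) and the Plasma cell-like gate (137 CPM, 28 cells) had enough lymphoid cells to read. On the neutrophil path Jund dipped to 41.0 and 18.5 CPM in PreNeu-like cells and stood at 214 and 95.5 in mNeu-like cells.

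Egr1, a zinc finger factor that helps hold stem cells quiescent, was highest in HSC/MPP-like cells at 250 CPM (237 to 264) and 182 (164 to 202), apart from every other gate in both libraries. It was 30.2 and 17.3 in mNeu-like cells.

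Atf3, a stress-induced member of the ATF family that dimerizes with Jun proteins, was close to absent. It reached 12.2 CPM (9.67 to 15.2) in Ctrl and 15.5 (12.0 to 19.8) in cKO Monocyte-like cells, on 80 and 66 UMIs. In the ProNeu-like, PreNeu-like and imNeu-like gates each library held 0 to 3 UMIs of it. Where it was 0, in Ctrl imNeu-like cells, a floor of 3 UMIs corresponds to 0.778 CPM.

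Ier2, a small nuclear protein gene induced along with Fos, was highest in imNeu-like cells at 370 and 273 CPM, followed by mNeu-like cells at 333 and 248. Dusp1, a phosphatase that turns off p38 and JNK and is induced by them, was highest in mNeu-like cells at 268 and 206 CPM. In Ctrl its interval overlapped that of 31 Macrophage-like cells at 179 CPM. HSC/MPP-like cells stood at 143 and 150 CPM for Dusp1, and PreNeu-like cells were low at 54.8 and 28.0. At a fixed depth the order of these gates changed in part. Among cells of 4000 up to 8000 UMIs, Ctrl Dusp1 was 140 CPM for the mNeu-like gate, below 199 for HSC/MPP-like. The cKO values were 287 and 170. Ier2 of the imNeu-like gate stayed above that of HSC/MPP-like at this depth in Ctrl (358 against 221 CPM). In cKO the imNeu-like value was the lower one, at 339 against 389 CPM, the latter on 80 UMIs.

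Across the 24 points formed by gate and library, Fosb and Jun followed each other most closely of all pairs of members (Pearson r = 0.85 on log2(CPM + 10)), then Junb and Dusp1 (0.72). Fosb and Fosl2 were at -0.14 and Jund and Ier2 lowest at -0.25. Of 5222 genes with at least 50 CPM in 1 gate of each library, the 2 non-members most like each member were Mtmr6 (0.95) and Anxa2 (0.94) for Fosl2, Olfm1 (0.93) and Arhgef37 (0.90) for Atf3, Twf2 (0.89) and Pgk1 (0.88) for Ier2, and Zfp36l1 and Etnk1 (both 0.88) for Jund. For Fos they were Tsen34 and Snx10 (both 0.86), for Junb Neurl3 (0.86) and Cd84 (0.84), for Dusp1 Gcnt2 (0.85) and Ptpn12 (0.81), for Jun Etv6 (0.84) and Mlec (0.82), for Fosb Coro2a (0.81) and Tap2 (0.79), and for Egr1 Spns2 and Cd34 (both 0.77). The CD34 antigen gene is a marker of the HSC/MPP-like gate. These correlations describe the ranking only, since the points share 2 libraries.

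The share of cells with a UMI was compared at a fixed depth, at which a cell without one may still hold the transcript. With every cell thinned to 1000 UMIs, Fos was seen in 39.1% of Ctrl and 41.1% of cKO HSC/MPP-like cells, 18.8% and 14.9% of ProNeu-like, 16.6% and 10.2% of PreNeu-like, 24.9% and 20.7% of imNeu-like and 38.8% and 26.6% of mNeu-like cells. Unthinned, the HSC/MPP-like shares were 84.6% and 86.5% and the mNeu-like shares 58.2% and 61.3%, at a median of 2543 UMIs per Ctrl and 6536.5 per cKO mNeu-like cell. Thinned shares of Ctrl Erythroblast-like cells, the gate with least of these RNAs (median 5049 UMIs before thinning), were 3.23% for Fos, 4.30% for Jun, 8.60% for Jund and 2.15% (0.262% to 7.55%) for Fosb, Egr1, Ier2 and Dusp1, and 0 of 93 cells for Fosl2, Junb and Atf3, with an upper limit of 3.89%. Free RNA in the droplets would add a share of this kind to all gates. The 93 cells set this level only roughly, and many low shares lay within its interval. Among them were Atf3 in the neutrophil gates (0.215% or less) and in monocytes (2.77% and 0.647%), Fosl2 in ProNeu-like cells (1.05% and 0.856%), and Egr1 in mNeu-like cells (3.12% and 2.21%) and in cKO PreNeu-like cells (2.67%). Fosb in cKO ProNeu-like (5.62%), PreNeu-like (3.00%), imNeu-like (3.75%), mNeu-like (3.22%) and Monocyte-like cells (4.53%) lay within it too. So did Fosb in Ctrl PreNeu-like (7.36%) and mNeu-like cells (5.21%), while Ctrl Monocyte-like cells stood above it at 13.7%. Jund in ProNeu-like and PreNeu-like cells (2.33% to 5.56%) stood below the Erythroblast-like share. By level, Jund was 117 CPM in Ctrl Erythroblast-like cells and 41.0 in Ctrl PreNeu-like cells, so for Jund that share is not a measure of free RNA alone. The cKO shares of Fosb and Egr1 named here lay within the interval of a share taken from Ctrl cells. This limits their ratios below, that of Fosb in Monocyte-like cells included. The cKO library held 14 Erythroblast-like cells, too few to set such a level. The part of free RNA in the low values of Fosb, Egr1 and Jund was not tested.

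**Figure D2:**
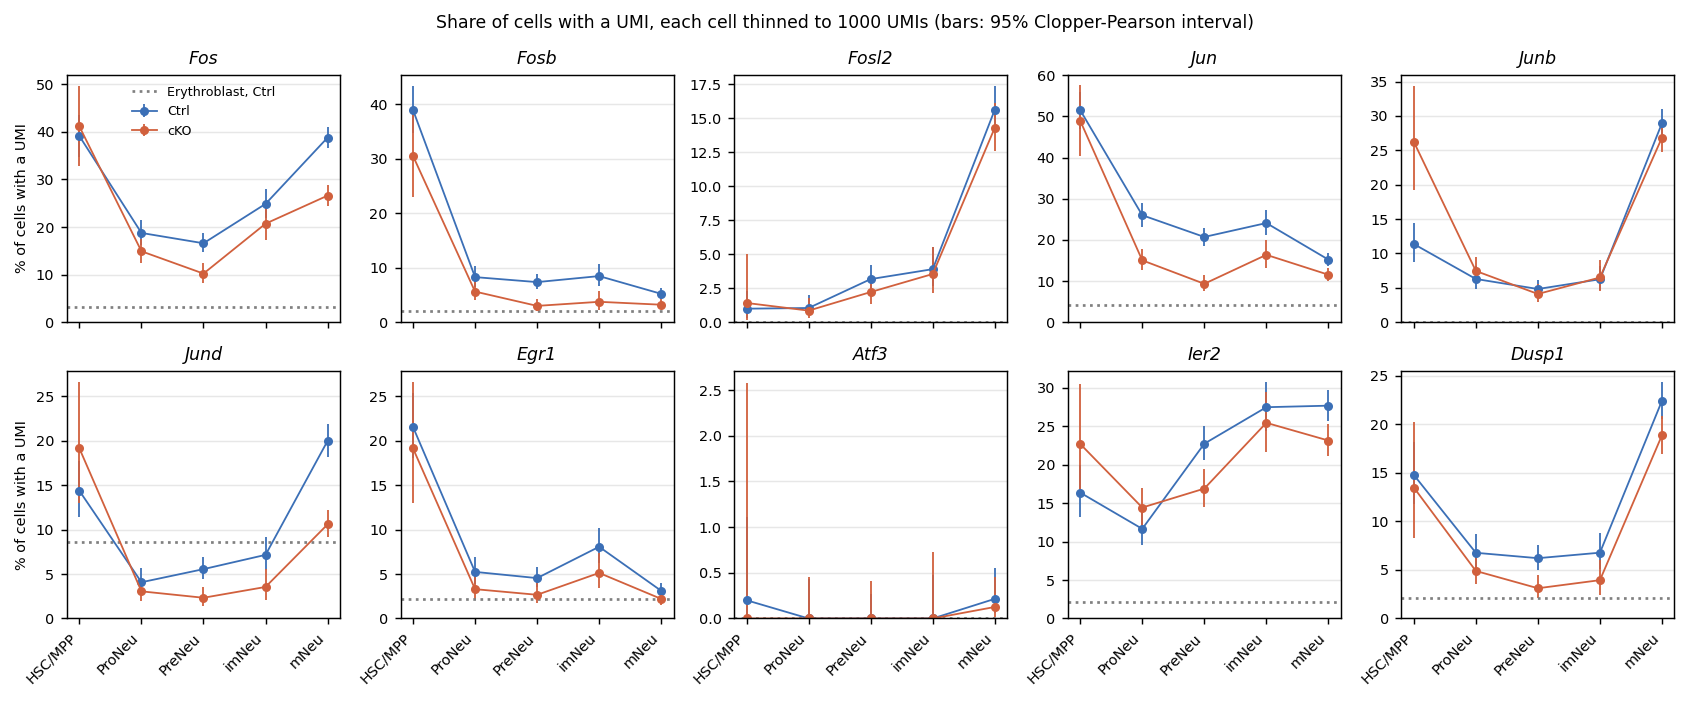
Percent of cells with at least 1 UMI of each gene (vertical axis, from 0) along the neutrophil path (horizontal axis), after each cell was thinned to 1000 UMIs, blue for Ctrl and orange for cKO, with 95% Clopper-Pearson intervals. The dotted line is the share in Ctrl Erythroblast-like cells. Jun, Fosb and Egr1 fall from the HSC/MPP-like gate, Fos and Jund dip and return, and Fosl2, Junb and Dusp1 rise in mNeu-like cells.

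Cells that held one member tended to hold another, weakly. In cells thinned to 2000 UMIs, the median correlation over pairs of members ran from 0.03 to 0.16 across 6 gates and both libraries. Among the highest pairs were Fos with Fosb in HSC/MPP-like cells (r = 0.36 over 487 Ctrl cells and 0.49 over 141 cKO cells), and Fos with Dusp1 in mNeu-like cells (0.46 over 1250 Ctrl and 0.38 over 1502 cKO cells). Fos with Junb in mNeu-like cells was at 0.41 and 0.35. In mNeu-like cells of at least 2000 UMIs, which left out 611 of 1861 Ctrl and 84 of 1586 cKO cells, the 10% of cells richest in Fos held 47.7% of Fos UMIs in Ctrl and 53.8% in cKO, with a variance of 3.15 and 2.62 times the mean, while 50.1% and 61.7% of cells held none. Fos in mature neutrophils was thus spread over cells more unevenly than counting alone gives, for which the variance equals the mean. Counts this sparse give low correlations whatever the cause, and cells of 1 library are not replicates.

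Between genotypes, Fosb, Jun, Jund and Egr1 were lower in cKO, and Junb and Ier2 were higher in stem and erythroid progenitors. Fos and Dusp1 were lower by their intervals in 5 of 7 gates each, and Fosl2 in 2 of 7. Ratios were read in the 7 gates with at least 50 cells in each library, for genes with at least 10 UMIs in both libraries together, which 65 of 70 pairs of member and gate met; the other 5 are all Atf3. A ratio is log2 of cKO over Ctrl CPM. Of the 65, the interval lay below 0 for 44 and above 0 for 5. A 2-fold lower value was reached by 14 and a 2-fold higher value by 0. Low values were common throughout: along the neutrophil path the median of all genes was -0.11 at the HSC/MPP-like start, -0.29 for ProNeu-like, -0.40 for both PreNeu-like and imNeu-like and -0.52 for mNeu-like cells, against -0.22 for monocytes and -0.17 for erythroid progenitors, and 44 of the 65 lay below the median of their gate.

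Read against all genes tested, the counts of members at least 2-fold lower were as follows. In HSC/MPP-like cells 0 of 9 members were lower, with 5.51% of all genes lower and 2.41% higher. In ProNeu-like cells 1 of 9 was lower (Fosb), with 5.84% of all genes lower and 1.16% higher. In PreNeu-like cells 3 of 9 were lower (Fosb, Jun and Jund), with 12.7% of all genes lower and 1.2% higher. In imNeu-like cells 3 of 9 were lower (Fosb, Jund and Egr1), with 16.8% of all genes lower and 1.37% higher. In mNeu-like cells 3 of 10 were lower (Fosb, Jund and Atf3), with 25.1% of all genes lower and 1.57% higher, so at this limit of 10 UMIs the members' share was near the background there. In Monocyte-like cells 4 of 10 were lower (Fosb, Jun, Jund and Egr1), with 9.11% of all genes lower and 1.58% higher. In Erythroid progenitor-like cells 0 of 9 were lower, with 8.72% of all genes lower and 1.86% higher. At a limit of 50 UMIs per gene the shares of all genes were smaller. Members lower were then 1 of 9 in ProNeu-like (2.51% of all genes), 3 of 9 in PreNeu-like (6.19%) and 3 of 9 in imNeu-like cells (7.89%). They were 2 of 9 in mNeu-like (13.7%) and 4 of 10 in Monocyte-like cells (4.42%). In HSC/MPP-like cells 0 of 9 were lower (2.32%), and in Erythroid progenitor-like cells 0 of 8 (3.96%).

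**Figure D3:**
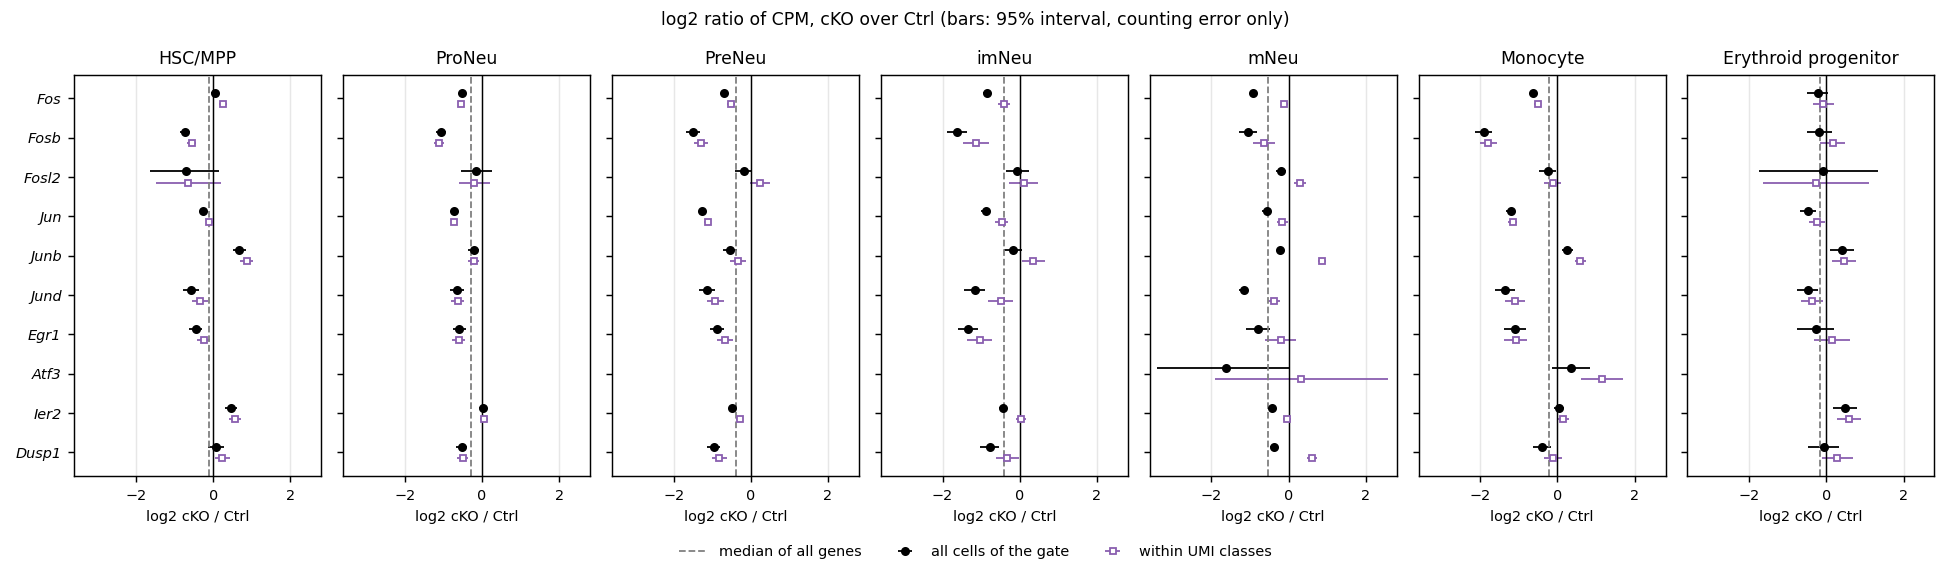
log2 ratio of CPM, cKO over Ctrl (horizontal axis), of each gene (rows) in the 7 gates with at least 50 cells per library. Filled black points use all cells of the gate. Open purple squares combine the ratios within up to 5 classes of UMIs per cell, those with cells of both libraries. Bars are 95% intervals of counting error, and the dashed line is the median of all genes. Fosb, Jun, Jund and Egr1 lie left of 0 from ProNeu-like to Monocyte-like cells by both measures, while Junb and Dusp1 in mNeu-like cells move from left to right of 0. The Egr1 interval in mNeu-like cells spans 0 within the classes.

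Fosb showed the lowest ratio of all members in 5 of the 7 gates, all but mNeu-like and Erythroid progenitor-like. In Monocyte-like cells it was 175 CPM in Ctrl (1148 UMIs) and 46.6 in cKO (198 UMIs), a log2 ratio of -1.91 (-2.13 to -1.69). Its ratio was -1.62 (-1.88 to -1.37) in imNeu-like, -1.50 (-1.67 to -1.33) in PreNeu-like, -1.06 (-1.19 to -0.93) in ProNeu-like, -1.06 (-1.29 to -0.83) in mNeu-like and -0.72 (-0.86 to -0.60) in HSC/MPP-like cells. In Erythroid progenitor-like cells, at 47.8 and 42.3 CPM, the interval spanned 0.

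Jun was lower in all 7 gates by its interval. It was 453 CPM in Ctrl and 195 in cKO Monocyte-like cells (-1.22, -1.33 to -1.11), and 234 and 98.0 in PreNeu-like cells (-1.26, -1.34 to -1.17). The difference was smallest in HSC/MPP-like cells, at -0.25 (-0.34 to -0.16). Relative to the median of all genes it was smallest in mNeu-like cells, at -0.05, against -0.14 in HSC/MPP-like cells.

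Jund was also lower in all 7 gates, from -0.48 (-0.76 to -0.21) in Erythroid progenitor-like to -1.35 (-1.61 to -1.09) in Monocyte-like cells, where it was 91.0 and 35.8 CPM. Egr1 was 83.3 CPM in Ctrl and 32.8 in cKO imNeu-like cells (-1.34, -1.61 to -1.08) and 65.4 and 30.6 in Monocyte-like cells (-1.10, -1.39 to -0.81). In Erythroid progenitor-like cells its interval spanned 0. Over all cells, all 4 genes lay below the median of all genes in all 7 gates. Within classes of UMIs per cell this held in 7 gates for Jund, 6 each for Fosb and Jun, and 5 for Egr1. The exceptions were Fosb and Egr1 in Erythroid progenitor-like cells, and Jun and Egr1 in mNeu-like cells. From ProNeu-like to Monocyte-like cells their ratios kept the sign under every alternative setting listed in the closing part, scaling included; the exceptions were Jund in HSC/MPP-like cells thinned to 1000 UMIs (0.28), and Fosb, Jun and Egr1 in Erythroid progenitor-like cells.

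Fos was 2-fold lower in 0 of 7 gates, though in mNeu-like cells its ratio was below those of Jun (-0.57) and Egr1 (-0.80). The Fos ratio was -0.92 (-0.99 to -0.85) in mNeu-like, -0.85 in imNeu-like, -0.69 in PreNeu-like, -0.64 in Monocyte-like and -0.53 in ProNeu-like cells. Its intervals spanned 0 in HSC/MPP-like (0.06, -0.04 to 0.16) and Erythroid progenitor-like cells. Fosl2 ranged from -0.69 (-1.65 to 0.16) on 62 and 14 UMIs in HSC/MPP-like cells to -0.06 in imNeu-like cells, and lay above the median of all genes in 5 of 7 gates.

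Junb and Ier2 went the other way at the top of the hierarchy. Junb was 136 CPM (126 to 146) in Ctrl and 218 (198 to 240) in cKO HSC/MPP-like cells, a log2 ratio of 0.68 (0.51 to 0.85). It was also higher in Erythroid progenitor-like cells (0.41, 0.10 to 0.72) and Monocyte-like cells (0.25, 0.11 to 0.39), and lower in PreNeu-like cells (-0.55, -0.72 to -0.37). Ier2 was 175 and 241 CPM in HSC/MPP-like cells (0.46, 0.30 to 0.62), 37.0 and 51.9 in Erythroid progenitor-like cells (0.49, 0.18 to 0.79) and 245 and 173 in PreNeu-like cells (-0.50, -0.57 to -0.43). In the same HSC/MPP-like cells Fosb and Jun were lower, so the members did not move as a block. Dusp1 ranged from -0.97 (-1.14 to -0.80) in PreNeu-like to 0.08 (-0.12 to 0.27) in HSC/MPP-like cells. Scaling by the median of ratios, which sets the median gene near 0, turned the small negative ratios of mNeu-like cells positive for Junb (from -0.23 to 0.29), Ier2 (from -0.43 to 0.10), Dusp1 (from -0.38 to 0.14) and Fosl2 (from -0.20 to 0.32). Thinned to 1000 UMIs, Junb in Erythroid progenitor-like cells went from 0.41 to -0.84, while Junb and Ier2 in HSC/MPP-like cells stayed above 0 under each alternative.

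Atf3 was too sparse for a ratio outside 2 gates. In Monocyte-like cells the log2 ratio was 0.35 (-0.14 to 0.84) and in mNeu-like cells, on 9 and 6 UMIs, -1.63 (-3.40 to 0.02).

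Depth moved with these ratios, most of all in mature neutrophils. In Ctrl mNeu-like cells the CPM of Fos and Junb fell as UMIs per cell rose: cells with 1000 up to 2000, 2000 up to 4000 and 4000 up to 8000 UMIs held Fos at 902, 676 and 429 CPM and Junb at 662, 368 and 200 CPM. In cKO mNeu-like cells of the same classes Fos stood at 504, 645 and 422 CPM and Junb at 605, 638 and 422. At 4000 up to 8000 UMIs, with 359 Ctrl and 686 cKO cells, the libraries were thus close in Fos and apart in Junb, with more in cKO. Dusp1 in that class was 140 and 287 CPM, Jund 144 and 121, and Fosb 61.6 and 41.4.

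Combined over 5 classes of UMIs per cell, a comparison added after seeing the data, the mNeu-like ratio was 0.86 (0.75 to 0.96) for Junb, 0.60 (0.47 to 0.72) for Dusp1 and 0.30 (0.15 to 0.45) for Fosl2. It was -0.11 (-0.20 to -0.03) for Fos, in place of -0.92 over all cells, -0.37 (-0.53 to -0.22) for Jund and -0.64 (-0.92 to -0.36) for Fosb. Jun was at -0.16 (-0.31 to -0.02), and Egr1 at -0.21 with an interval that spanned 0 (-0.60 to 0.19). The median of all genes was then -0.31, and 2 of 10 members lay below it. In Monocyte-like cells the same comparison left Fosb at -1.79, Jun at -1.16, Jund at -1.10 and Egr1 at -1.09, and put Junb at 0.59. Atf3, at 1.16 there, was not stable: it was -0.02 with per-cell shares and -2.10 with cells thinned to 1000 UMIs. In imNeu-like cells, which were 2.39 times deeper in cKO, Fosb was -1.13 and Egr1 -1.04 within classes, while Jund went from -1.17 to -0.49, Jun from -0.88 to -0.47 and Fos from -0.85 to -0.42. In PreNeu-like cells Fosb was -1.29 and Jun -1.12, and Jund, at -0.92, was no longer 2-fold lower. In HSC/MPP-like cells Junb was 0.87, Ier2 0.57 and Fos 0.25 (0.15 to 0.36), with Fosb at -0.56 and Jund at -0.35. A class with cells of only 1 library was left out. This dropped 96 cKO imNeu-like cells of 16000 UMIs and over and 14 Ctrl HSC/MPP-like cells below 2000. In imNeu-like cells Jund was 70.7 CPM in Ctrl and 44.9 in cKO at 4000 up to 8000 UMIs. It was 57.1 and 35.2 at 8000 up to 16000. At 2000 up to 4000, with 18 cKO cells, it was 102 and 184.

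The choice of depth scale matters. When cells were instead matched by their rank, in quartiles of UMIs per cell within each library, the mNeu-like ratios stayed at -0.91 for Fos, -0.21 for Junb and -0.37 for Dusp1. In UMIs per cell, mNeu-like cells held more in cKO for Fos (1.81 in Ctrl and 2.32 in cKO), Junb (1.03 and 2.12) and Dusp1 (0.784 and 1.46). Depth classes also split mNeu-like cells by other genes: at 4000 up to 8000 UMIs the secondary granule gene Ltf was 5853 CPM in Ctrl and 2712 in cKO, and the chemokine receptor gene Cxcr2, a mark of mature neutrophils, 834 and 1309. The parts of depth and of maturation in the mNeu-like ratios were not tested.

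**Figure D4:**
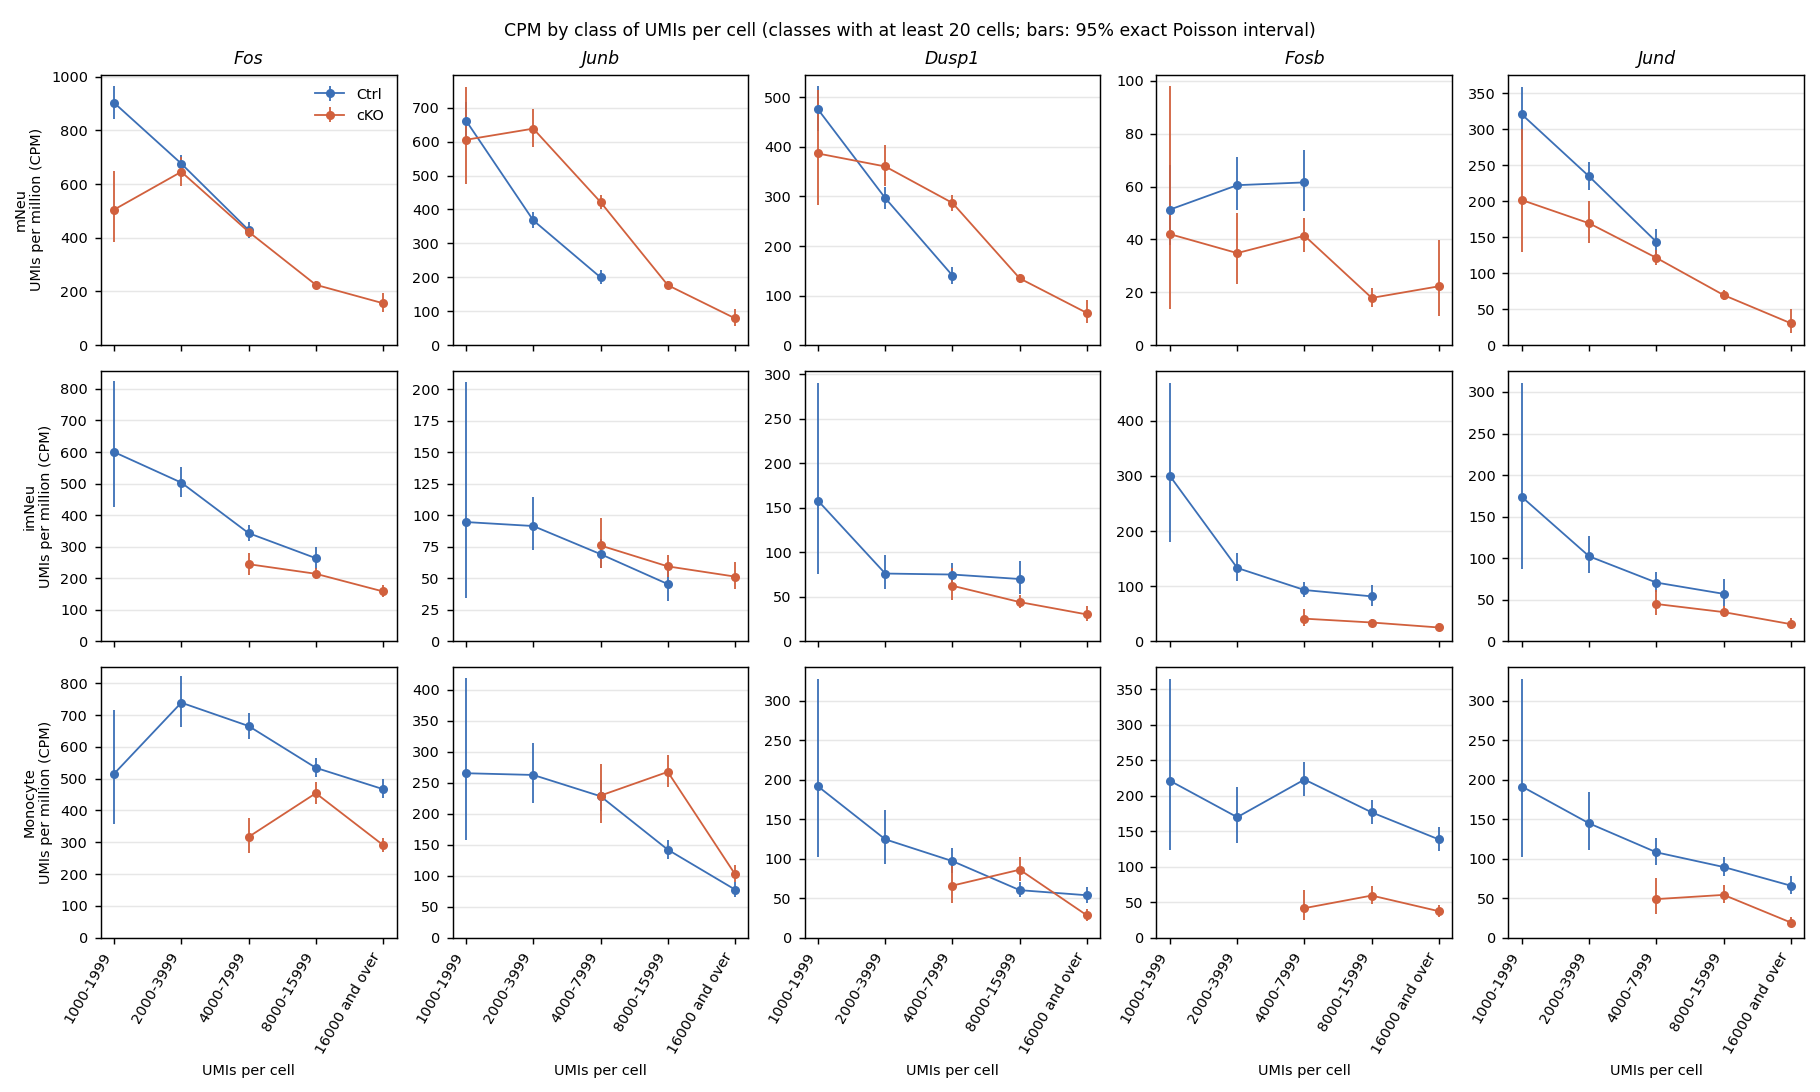
CPM (vertical axis, linear from 0) of Fos, Junb, Dusp1, Fosb and Jund by class of UMIs per cell (horizontal axis) in mNeu-like, imNeu-like and Monocyte-like cells, blue for Ctrl and orange for cKO, for classes with at least 20 cells, with 95% exact Poisson intervals. Fos, Junb, Dusp1 and Jund fall with depth in Ctrl mNeu-like cells; at 4000 up to 8000 UMIs mNeu-like cells of both libraries are close in Fos (429 and 422 CPM) and apart in Junb (200 and 422 CPM), while Fosb in monocytes is lower in cKO in each class shown for both.

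Another value moved with the libraries. Malat1, an RNA retained in the nucleus, was lower in cKO in all 7 gates, by log2 ratios of -0.70 in mNeu-like to -1.64 in Monocyte-like cells (5610 and 1797 CPM), and between -0.44 and -1.58 within depth classes. The median share of mitochondrial UMIs differed little, at 2.43% (Ctrl) and 2.04% (cKO) for HSC/MPP-like, 0.371% and 0.340% for mNeu-like and 1.97% and 1.71% for Monocyte-like cells. The part of nuclear RNA content, or of RNA quality, in the lower values of Fosb, Jun, Jund and Egr1 was not tested.

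Other genes of the pathway were read from lists chosen by function. Among 16 further AP-1 dimer partners, 9 to 14 were measured per gate, and 1 (Batf2, in HSC/MPP-like cells) was at least 2-fold higher. Those at least 2-fold lower were 3 of 14 in HSC/MPP-like (5.51% of all genes), 2 of 13 in ProNeu-like (5.84%) and 2 of 11 in PreNeu-like cells (12.7%). They were 0 of 9 in imNeu-like (16.8%), 2 of 12 in mNeu-like (25.1%), 1 of 14 in Monocyte-like (9.11%) and 2 of 10 in Erythroid progenitor-like cells (8.72%). The medians of the measured partners were -0.58 to -0.10. Of the 3 most abundant, Nfe2, the erythroid and megakaryocytic subunit, ranged from -0.17 to 0.32, and Mafg from -0.60 to -0.15, while Nfe2l2, the antioxidant regulator NRF2, ranged from -0.34 to 0.14. Bach2, a repressor that restrains myeloid genes in lymphoid progenitors, was lower in 5 gates, among them Monocyte-like cells at 8.08 and 1.65 CPM; in mNeu-like and Erythroid progenitor-like cells it had 0 UMIs in cKO and was counted against the floor of 3 UMIs. Bach2 is a gene of B-lineage cells, of which Ctrl held 286 B-like and 252 ProB-like and cKO 13 and 3; their part in the Bach2 values was not tested.

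Among 36 other primary response genes, 2 to 8 of 25 to 33 measured were at least 2-fold lower and 0 or 1 higher. The lower ones were 4 of 32 in HSC/MPP-like (5.51% of all genes), 2 of 33 in ProNeu-like (5.84%), 6 of 30 in PreNeu-like (12.7%), 8 of 29 in imNeu-like (16.8%), 6 of 30 in mNeu-like (25.1%), 5 of 33 in Monocyte-like (9.11%) and 6 of 25 in Erythroid progenitor-like cells (8.72%). At the limit of 10 UMIs per gene, which sets these shares, the mNeu-like share lay below that of all genes. Their medians were -0.27 against a median of all genes of -0.11 in HSC/MPP-like, -0.45 against -0.40 in PreNeu-like, -0.67 against -0.40 in imNeu-like, -0.42 against -0.52 in mNeu-like, -0.17 against -0.29 in ProNeu-like, -0.27 against -0.22 in Monocyte-like and -0.57 against -0.17 in Erythroid progenitor-like cells. Dusp2, Ppp1r15a and Myc were each at least 2-fold lower in PreNeu-like, imNeu-like, mNeu-like and Monocyte-like cells. In those neutrophil gates all of them were sparse, at 3.13 to 8.83 CPM in Ctrl and 0.175 to 2.51 in cKO. Ppp1r15a, the stress-induced phosphatase subunit GADD34, was 32.9 CPM in Ctrl and 12.9 in cKO Monocyte-like cells, and Myc 44.4 and 19.1. Klf4, a monocyte differentiation factor, was lower in 4 gates, where it was sparse (5.52 CPM or less). It was not 2-fold lower in Monocyte-like cells, where it was abundant (398 and 311 CPM). Dusp6, the ERK phosphatase, was lower in 5 gates, for example 48.6 and 22.8 CPM in HSC/MPP-like cells. Socs3, the feedback inhibitor of cytokine signalling through STAT3, was the one gene higher in at least 3 gates. It was 4.99 and 20.2 CPM in HSC/MPP-like cells (log2 ratio 2.02) and 4.88 and 12.0 in Monocyte-like cells (1.30), and 30.4 and 52.3 in mNeu-like cells (0.79). The most abundant of this list, Zfp36l2, Btg1 and Zfp36, ranged from -1.10 to 0.34.

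Among 16 heat shock genes, the response to protein damage that also follows harsh handling, 0 of 15 measured passed 2-fold in HSC/MPP-like, ProNeu-like and Monocyte-like cells. Of all genes 5.51%, 5.84% and 9.11% were lower in those gates. In PreNeu-like cells Hsph1 was lower and Hspa1b higher, of 15 measured (12.7% of all genes lower and 1.2% higher). In imNeu-like cells Hsp90aa1 and Hspe1 were lower, of 12 measured (16.8% of all genes). In Erythroid progenitor-like cells Hspa1a was higher, of 15 measured (1.86% of all genes). In mNeu-like cells 5 of 13 were lower, Hsp90aa1 among them (-1.25), with 25.1% of all genes lower, and their median was -0.79 against -0.52 for all genes. Hspa8 and Hsp90ab1 ranged from -0.79 to 0.23. Among 15 genes of the JNK cascade, 12 were measured per gate and 0 were higher. The lower ones were 2 in imNeu-like (16.8% of all genes), 2 in mNeu-like (25.1%) and 1 in Erythroid progenitor-like cells (8.72%). In the other gates 0 were lower (5.51% to 12.7% of all genes). The JNK cascade medians of -0.61 to -0.26 lay below the median of all genes in all 7 gates, for example -0.50 against -0.29 in ProNeu-like cells. The most abundant beside Map4k4 were Tab2 (-0.76 to -0.20) and Map3k11 (-0.72 to 0.10). Their levels say how much RNA the cascade had, not how active its kinases were. Of 11 serum response and CREB factors upstream of these genes, 0 to 2 were lower per gate and 0 higher. Elk3, a ternary complex factor, was lower in 3 gates (PreNeu-like, imNeu-like and mNeu-like, at 2.85 CPM or less in cKO), and Stat3, Crebbp and Ep300 ranged from -0.75 to 0.28.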

How the data were processed

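Counts are the authors' own: per the labels, the deposited matrices hold raw UMI counts per gene and barcode, made with Cell Ranger 5.0.0 on mm10 from BMKMANU DG1000 single-cell 3′ libraries, and are not normalized. A UMI count corrects for PCR copies, but CPM is a share of a cell's RNA, so it moves when other genes move, and 3′ counts do not depend on transcript length.

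Barcodes with 200 to 9000 genes, at most 30% mitochondrial UMIs and at least 1000 UMIs were kept. Doublets were not called; leaving out the 1% of cells with most UMIs is an alternative. Cells were gated by the percent of UMIs on marker lists and at least 3 detected markers (cycling: at least 2 of 5 cycle genes). The thresholds were set on these data, and cells of several gates were left out. UMIs were summed per gate and library and given as CPM with exact Poisson intervals, shares with Clopper-Pearson intervals, and log2 ratios with the exact binomial interval of both sums. A gene at 0 in 1 library took a floor of 3 UMIs for the 2-fold counts. Ratios within depth classes used the Mantel-Haenszel estimator over the classes with cells of both libraries. No test between genotypes was made, as each has 1 library; the limits of 2-fold and of 10 UMIs are rules of size. All 10 members are named; from the other lists, the 3 genes highest by CPM and each gene past 2-fold the same way in at least 3 gates. The members and lists were chosen with earlier results of these data known. Motifs were searched in 250 bases upstream of RefSeq start sites. Scripts ran in Python 3.11.15 with numpy 2.4.6 and scipy 1.17.1 and were tested on simulated data. Alternatives were other depth and mitochondrial limits, scaling, denominators, thinning, gate assignment and depth matching.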

Additional observations from a re-analysis of the deposited data

Results flagged for a closer look

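Junb and Ier2 went opposite ways in different gates, each by intervals of counting error that exclude 0; with 1 library per genotype the difference between gates was not tested. The log2 ratio of cKO over Ctrl for Junb was 0.68 in HSC/MPP-like cells and -0.55 in PreNeu-like cells, or 0.79 and -0.15 relative to the median of all genes. For Ier2 it was 0.49 in Erythroid progenitor-like cells and -0.50 in PreNeu-like cells, or 0.66 and -0.10 relative to that median. Within classes of UMIs per cell the ratios were 0.87 and -0.34 for Junb and 0.58 and -0.29 for Ier2. Relative to the median of all genes within those classes, the PreNeu-like values were 0.024 for Junb and 0.066 for Ier2, so the opposite sign was then gone.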

How the results depend on the processing

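The log2 ratio of the summed members, cKO over Ctrl, was -0.16 (HSC/MPP-like), -0.54 (ProNeu-like), -0.83 (PreNeu-like), -0.75 (imNeu-like), -0.58 (mNeu-like), -0.67 (Monocyte-like) and -0.17 (Erythroid progenitor-like). Of 71 values of it under 11 other settings, 37 moved by less than counting error and 34 by more. It became 0.06, -0.44, -0.89, -0.53, -0.58 and -0.27 (in that order, without mNeu-like) with cells thinned to 1000 UMIs. With the mean of per-cell shares it was 0.01, -0.38 and -0.89, then -0.52, -0.57 and 0.01 from mNeu-like on, and with median-of-ratios scaling -0.05, -0.25, -0.43, -0.35, -0.06, -0.44 and 0.00 in the 7 gates. Within classes of UMIs per cell it was 0.01 (HSC/MPP-like), -0.64 (PreNeu-like), -0.31 (imNeu-like), 0.16 (mNeu-like), -0.53 (Monocyte-like) and 0.02 (Erythroid progenitor-like). With cells assigned by their highest marker share it was -0.33 (HSC/MPP-like), -0.89 (PreNeu-like and imNeu-like), -0.48 (mNeu-like) and -0.45 (Erythroid progenitor-like). A floor of 2000 UMIs gave -0.43 in mNeu-like cells, leaving out haemoglobin, immunoglobulin, mitochondrial and ribosomal genes gave -0.05 for HSC/MPP-like and -0.49 for ProNeu-like cells, and leaving out the 1% of cells with most UMIs gave 0.38 in Erythroid progenitor-like cells. The cause of these moves was not tested.

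The 14 pairs of member and gate at least 2-fold lower became 9 with per-cell shares, 5 with median-of-ratios scaling, 9 within classes of UMIs and 28 at 1.5-fold. The 0 at least 2-fold higher became 2 with thinned cells and 1 each with per-cell shares, classes of UMIs and 1.5-fold. Atf3 in mNeu-like cells, on 9 and 6 UMIs, went from -1.63 to 0.33 within classes of UMIs. Of 723 single ratios 553 moved by less than counting error, and of 160 highest gates 147 stayed. No paired analysis was possible because the groups share 1 replicate number and hold 1 library each. Libraries, animals and genotype cannot be told apart, and 76 cKO Erythroid progenitor-like cells limit that gate.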

Other observations

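Between HSC/MPP-like and mNeu-like cells of Ctrl, Fosb fell by 3.07 on the log2 scale, Egr1 by 3.05 and Jun by 2.12, whereas Fosl2 was higher in mNeu-like cells by 3.79, Junb by 1.37, Ier2 by 0.93 and Dusp1 by 0.91. In cKO Fosb and Egr1 each fell by 3.40 and Jun by 2.44, and Fosl2 was higher by 4.28, Junb and Dusp1 by 0.46 each and Ier2 by 0.04 (-0.10 to 0.18). Fos and Jund changed sign, at 0.28 and 0.27 in Ctrl and -0.70 and -0.33 in cKO. None of these values is matched for depth. At 4000 up to 8000 UMIs per cell, mNeu-like cells of each library held less Fos and Jund than HSC/MPP-like cells did. Fos was 429 against 765 CPM in Ctrl and 422 against 900 in cKO, and Jund 144 against 262 and 121 against 199. The change of sign was thus absent in that class. For Fos and Jund, some classes with 14 or fewer cells in a gate went the other way. At 4000 up to 8000 UMIs, Ctrl Dusp1 was also lower in mNeu-like than in HSC/MPP-like cells (140 against 199 CPM). In cKO it was higher (287 against 170). Ier2 was 284 against 221 CPM in Ctrl and 273 against 389 in cKO. Junb was 200 against 182 in Ctrl and 422 against 379 in cKO.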
